A study of Mus musculus with 2 samples.

Results

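ISG15 is a small ubiquitin-like protein that is joined to other proteins by a chain of enzymes, and 5 genes of this pathway were followed in the colon of mice with and without epithelial EP4. They were Isg15 (the modifier itself), Uba7 (the activating enzyme, or E1), Ube2l6 (the conjugating enzyme, or E2), Herc6 (the main ISG15 ligase, or E3, of the mouse) and Usp18 (the protease that takes ISG15 off its targets). Probes were assigned to these genes by matching the RefSeq accession on the array to a gene table. All 5 genes were found, each through 1 probe printed in 1 spot, among 14668 genes with a value.

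RNA of whole colon from C57BL/6 mice was labelled with Cy3 and hybridized to Agilent mouse arrays, 1 array for each genotype. The control mice carried Villin-Cre alone. The other mice were Villin-Cre; EP4flox/flox (EP4 cKO), in which Cre, driven by the promoter of villin in intestinal epithelium, recombines the floxed Ptger4 gene, so that both genotypes carried Cre and the cells outside the epithelium kept the EP4 receptor. The labels speak of pooled RNA from 3 pools of colon, which with 1 array for each genotype is read here as combined on that array, and the methods give an age of 8 weeks. No allele or treatment beyond these is stated. Since each genotype had a single array, no test between genotypes was possible and every value describes these arrays alone. They are called the control array and the EP4 cKO array, after their labels.

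In ISGylation, as the joining of ISG15 is called, UBA7 activates ISG15, UBE2L6 receives it and a ligase such as HERC6 places it on newly made proteins. USP18 reverses the step and, apart from its protease activity, binds the type I interferon receptor and dampens its signal. Interferons induce the genes of the whole chain through a complex with STAT2 and IRF9, which binds the interferon-stimulated response element (ISRE), and free ISG15 is also secreted and acts as a cytokine. In the gut these genes are known for their response to viruses and other microbes.

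The sequence just before the start of each gene shows how the members differ at the place where such factors can bind. The RefSeq promoter table (GRCm38.p6) held 4 of the 5 genes, and Usp18 was not among them. The 100 bases before the start are printed 5′ to 3′ in the direction of the gene, with matches to the ISRE letters in capitals. They lie at chr4:156200819-156200918 (minus strand) for Isg15, chr9:107975467-107975566 (plus strand) for Uba7, chr2:84798728-84798827 (plus strand) for Ube2l6 and chr6:57580892-57580991 (plus strand) for Herc6.
Isg15: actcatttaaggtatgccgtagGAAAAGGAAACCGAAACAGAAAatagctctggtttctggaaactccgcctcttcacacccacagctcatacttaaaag
Uba7: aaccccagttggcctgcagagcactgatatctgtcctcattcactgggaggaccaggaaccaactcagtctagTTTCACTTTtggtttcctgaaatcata
Ube2l6: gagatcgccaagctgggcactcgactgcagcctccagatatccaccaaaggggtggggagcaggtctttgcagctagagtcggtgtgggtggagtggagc
Herc6: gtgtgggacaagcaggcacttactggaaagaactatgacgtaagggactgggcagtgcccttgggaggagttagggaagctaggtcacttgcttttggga

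The ISRE core was searched as GAAA, any 2 bases and GAAA again, on both strands of the 250 bases before the start. Isg15 held 3 overlapping matches, which together run from 78 to 57 bases before the start. Of all 32851 promoter windows in the table, 2.98% held at least 1 match. Uba7 held none of these but 1 match, on the opposite strand and 27 to 19 bases before the start, to the form shortened by 1 base, AAANNGAAA, which 9.37% of all windows held. The shorter form was chosen after the sequences were seen, and every match to the core is also a match to it. Ube2l6 and Herc6 held neither form. The gamma-activated site, an element of the response to interferon gamma, was searched as TTCNNNGAA, present in 7.02% of all windows, and was found in none of the 4 promoters. These matches describe letters in 1 window and not binding.

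The signals were scaled on each array to a trimmed mean of 2500, as in the methods of the study, and each ratio is EP4 cKO over Villin-Cre. The scanner software marks each spot as well above background or not and gives each signal an error, which does not cover mice or hybridizations. For bright spots it was nearly a fixed share of the signal, such as 819 for 8190 (Uba7, control array) and 14403 for 144026 (Isg15, EP4 cKO array). It is therefore not read here as a precision measured on that spot. Where a gene was not well above background on the control array, its fold is called a bound. It was taken against the gene's own signal there or, where that was lower, against 125, the dimmest signal well above background on that array. Taken against its own signal, as for Usp18, it is a ratio to a dim value and not a strict lower bound. The median log2 ratio of all genes with a value was -0.10.

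Isg15, the modifier, had a normalized signal of 3118 ± 313 (software error) on the control array and 144026 ± 14403 on the EP4 cKO array. It was thus readily measured in the control colon and 46.2-fold higher in the other, a log2 ratio of 5.53 ± 0.20. Among the 12808 genes well above background on both arrays, it had the 18th highest ratio.

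Uba7, the E1 of the pathway, had 8190 ± 819 on the control array and 21963 ± 2196 on the EP4 cKO array. Its log2 ratio was 1.42 ± 0.20 (2.68-fold), rank 278 of the same 12808 genes. Ube2l6, the E2, had 931 ± 98.2 and 3688 ± 369, a log2 ratio of 1.99 ± 0.21 (3.96-fold) and rank 124. Both enzymes were therefore well above background in the control colon and higher on the other array.

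Herc6, the ligase, was not well above background on the control array, where its signal was 43.0 ± 31.6, and was well above it on the EP4 cKO array, with 409 ± 43.3. It was at least 3.26-fold higher (log2 ratio of at least 1.71). Usp18, the deconjugating protease, had 136 ± 32.3 and 5807 ± 581, again well above background only on the EP4 cKO array. It was 42.7-fold higher (log2 ratio 5.42) against its own dim control signal, which is not a strict lower bound. Both values hold for the signals as scaled here and were lower after normexp correction with quantile normalization (log2 ratio of 1.17 for Herc6 and 4.29 for Usp18). For the ligase the control array thus gives no level, only an upper limit, and for the protease only a signal not well above background.

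**Figure D1:**
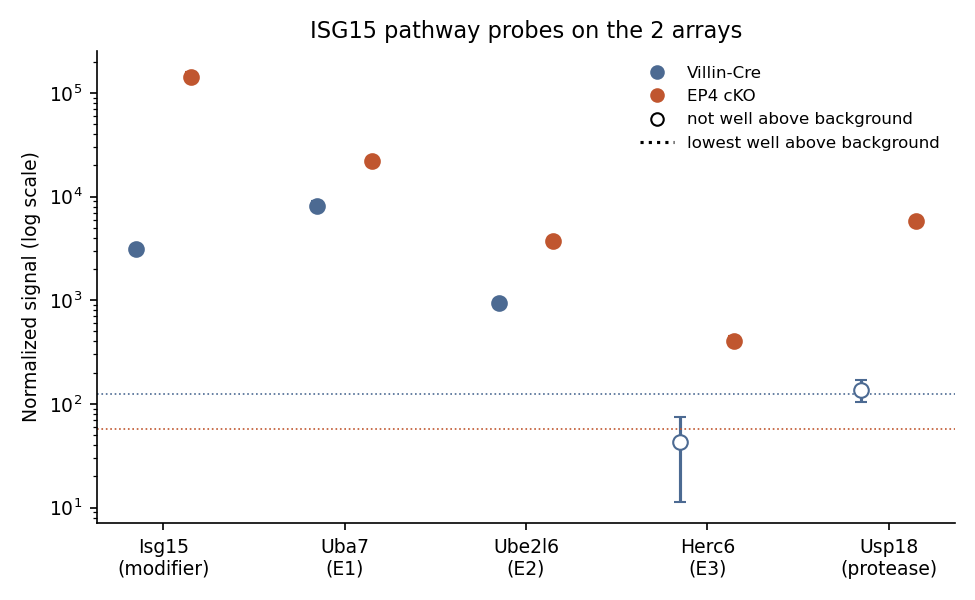
Normalized signal (log axis) of the single probe of each gene on the control array (blue) and the array labelled EP4 cKO (orange), with the software error as bars, which are smaller than most points. Filled points are well above background, open points are not, and dotted lines mark the lowest signal well above background on each array (125 and 57.8). The orange point lies above the blue one for all 5 genes, and Herc6 and Usp18 have open points on the control array.

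All 5 genes thus lay more than 2-fold above the control on the EP4 cKO array, as did 717 of all 14668 genes (4.89%), and their median log2 ratio was at least 1.99, with Herc6 at its bound, and 3.25 with dim probes at their own signal. Of all genes, 1171 (7.98%) were more than 2-fold lower. The genes were grouped with earlier results of these data known, so their count is a description. At 3-fold, 4 of the 5 remained past the threshold and Uba7 did not. In bulk tissue, a higher share of cells of a type and more RNA per cell cannot be told apart.

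**Figure D2:**
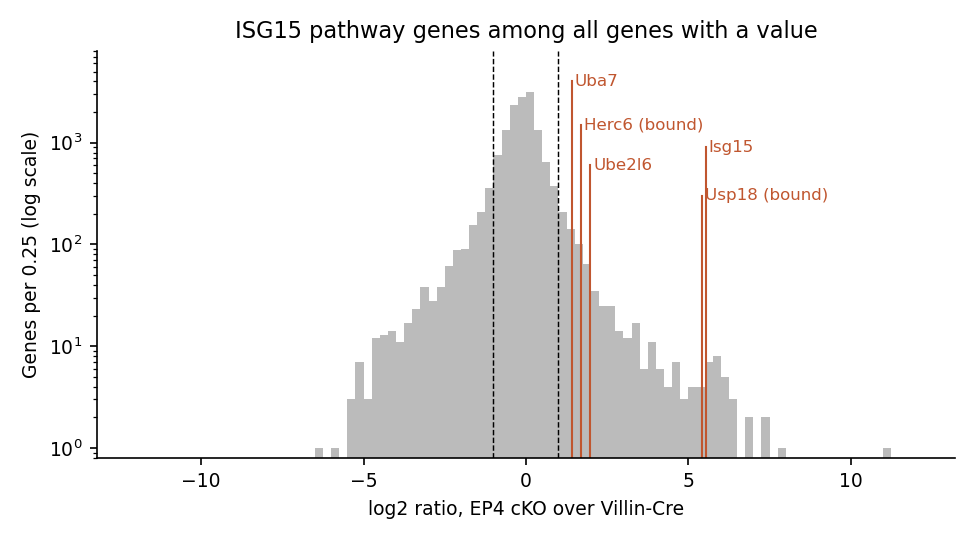
Number of genes (log axis) by log2 ratio, EP4 cKO over Villin-Cre, in steps of 0.25 for the 14668 genes with a value, with the 5 genes of the pathway as orange lines whose height has no meaning. Dashed lines mark 2-fold. Isg15 (5.53) and Usp18 (5.42, against its own dim control signal) lie in the right tail. Uba7 (1.42), Herc6 (at least 1.71) and Ube2l6 (1.99) lie between them and the 2-fold line.

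The size of the difference was uneven along the chain. On the log2 scale, the ratio of Isg15 exceeded that of Uba7 by 4.11 ± 0.29 (17.2-fold) and that of Ube2l6 by 3.54 ± 0.29 (11.7-fold). These software errors were nearly the same for each pair and give no test of the differences. Ube2l6 exceeded Uba7 by 0.56 ± 0.29 and lay above it under every setting. With 1 array for each genotype, their order beyond these arrays is not resolved. The ratio of Usp18 lay above those of both enzymes, also after normexp correction, and its place against Isg15 is not resolved. The bound of Herc6 lay above the value of Uba7 as reported (1.71 and 1.42) but not after normexp correction (1.17 and 1.38), so Herc6 has no place in this order. With the trimmed-mean scaling, the modifier and the protease that removes it were each above 40-fold, the protease against its own dim control signal. The activating and conjugating enzymes were within 4-fold.

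The setting that moved all 5 ratios was scaling to the E1A control spots, made to read spike-in RNA, which raised each log2 ratio by 1.04 (Uba7 to 2.47, Isg15 to 6.57) but also brought 39.6% of all genes past 2-fold higher. The bounds also moved between other settings. Beside the normexp values given above, Herc6 was 2.35 after loess and 3.25 with its own control signal kept. No setting turned a direction or brought a value of the 5 genes within 2-fold.

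**Figure D3:**
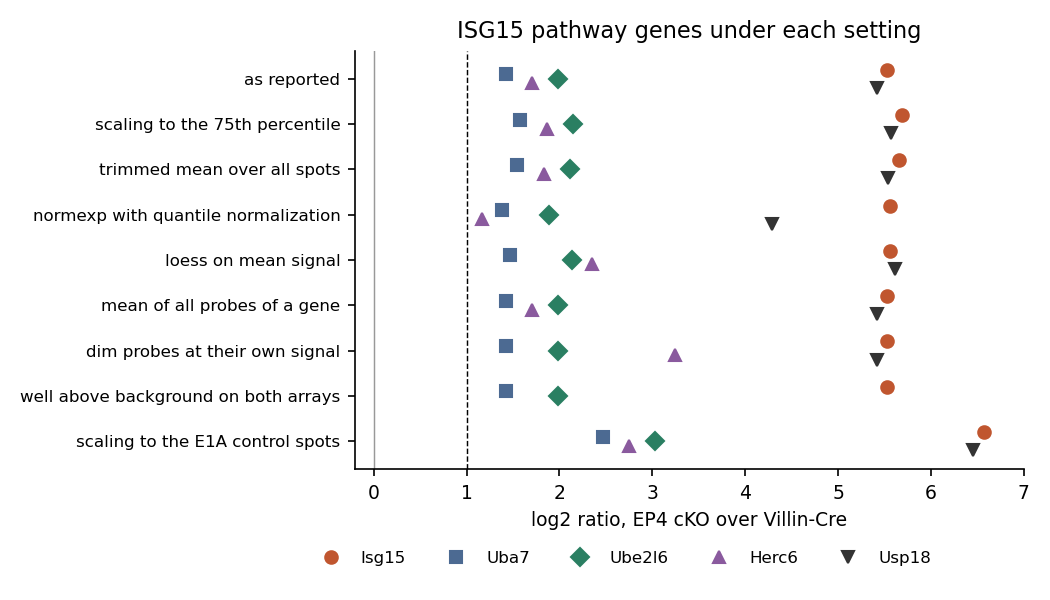
The log2 ratio, EP4 cKO over Villin-Cre, of each gene (symbols) as reported and under 8 other settings, with a dashed line at 2-fold. All points lie to the right of the line. Usp18 and Herc6 spread most between settings, and have no point where a value on both arrays was required.

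The 5 genes outside the pathway with a ratio nearest to that of Isg15 (well above background on both arrays) were Ifi27l2a (log2 ratio 5.53), Ifit3 (5.55), Apol9a (5.40), Gbp3 (5.69) and Gbp2 (5.73). The most distant of them differed from Isg15 by 0.20. This likeness rests on 1 ratio over 2 arrays.

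Other ubiquitin-like modifiers did not move with Isg15 as a group. Of 19 genes, 18 lay within 2-fold, and the median log2 ratio was -0.05. The exception was Ubd, which encodes FAT10, a modifier with a pair of ubiquitin-like domains that is also induced by interferon and sends its targets to the proteasome. Its signal was 572 on the control array and 22938 on the EP4 cKO array (40.1-fold, log2 ratio 5.32). The polyubiquitin gene Ubb (-0.08) was close to the median of all genes. Across the whole array, 4.89% of genes rose past 2-fold and 7.98% fell past it. The counts in this list and in those below were not tested against these shares.

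For the enzymes that resemble those of ISG15, the ratios were small. None of 9 other E1 genes passed 2-fold, with log2 ratios from -0.44 (Sae1) to 0.55 (Uba3), and Uba1, the main E1 of ubiquitin, had -0.05. None of 35 other E2 genes with a value did so either, from -0.79 (Ube2t) to 0.62 (Ube2a). Since few genes of the whole array passed 2-fold, a list as short as that of the E1 genes can hold none by chance. Ube2l3, the closest relative of Ube2l6, had 21865 and 32867, a log2 ratio of 0.59, and its dimmer probe had 0.52. Scaling to the E1A control spots brought 4 of the E1 and 15 of the E2 genes past 2-fold.

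Among HECT ligases, the family of Herc6, 1 of 23 genes passed 2-fold, and none was higher. It was Hecw2, a ligase of the NEDD4 branch, which was at least 12.4-fold lower (715 on the control array and not well above background on the other) by the brightest of its 3 probes, the others being too dim to measure. The other HERC genes had log2 ratios of -0.29 (Herc1), -0.02 (Herc2), 0.22 (Herc3) and 0.31 (Herc4). Of the other ligases reported to act on ISG15, Trim25, which also ubiquitinates the RNA sensor RIG-I, had 2 probes with 1.63-fold (the brighter) and 2.83-fold higher, on different sides of 2-fold. Arih1, a ligase that works with E2 enzymes of this type, had 0.06 by the brightest of its probes.

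In the USP family, to which Usp18 belongs, 41 of 49 other genes had a value, with a median log2 ratio of -0.18. Usp2, a protease able to cleave ISG15 as well as ubiquitin, had 1645 and 6179 (3.76-fold higher, log2 ratio 1.91), and its dimmer probe had 2.96. Usp37, a protease of the cell cycle, was 2.09-fold lower (log2 ratio -1.06), and within 2-fold under the other 4 scalings and normalizations planned, at which no USP gene was lower and 2 were higher. Usp5 (-0.13), Usp14 (-0.04) and Usp21 (-0.52), which can also react with ISG15, were within 2-fold.

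**Figure D4:**
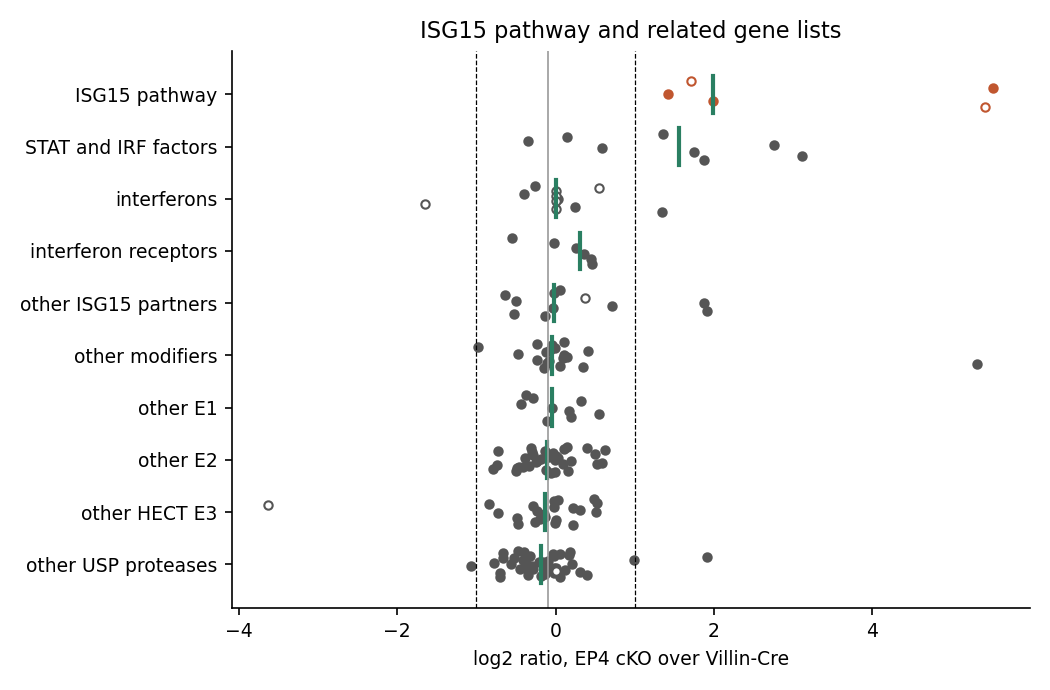
The log2 ratio, EP4 cKO over Villin-Cre, of each gene in the ISG15 pathway (orange) and in lists of related genes (grey), with filled points for genes well above background on both arrays and open points for bounds, at 0 where they did not exceed 1. Green bars are list medians, the grey line is the median of all genes (-0.10) and dashed lines mark 2-fold. The 5 genes of the pathway lie to the right of 2-fold, while the lists of other E1, E2, HECT and USP genes centre near the grey line.

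Some factors that carry the interferon signal to these genes were higher on the EP4 cKO array. Of the ISRE-binding complex, Stat2 had 2877 and 10562 (3.67-fold higher) and Irf9 had 4563 and 15348 (3.36-fold higher). The dimmer Stat2 probe was well above background only on the EP4 cKO array (62.3 and 99.3) and gave no usable bound. Irf7, which amplifies type I interferon, was 6.79-fold higher and Irf1 2.56-fold, whereas Irf3 had a log2 ratio of -0.35, Irf2 of 0.14 and Irf8 of 0.59.

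The interferons themselves were dim. Of 16 genes, 11 had a value and 5 were well above background on both arrays. Ifnl3, an interferon lambda that acts on epithelium, had 281 and 710 (2.53-fold higher). Ifnb1, the interferon beta gene, had 181 on the control array, was not well above background on the other and was at least 3.14-fold lower, from a control signal near the lowest measurable there (125). After normexp correction no interferon gene was more than 2-fold lower, so this call was lost. Ifng, the type II interferon, had 149 and 177 (log2 ratio 0.25). None of 6 receptor genes passed 2-fold, a count that so short a list can reach by chance. Among them, Ifnar2, the subunit to which USP18 binds, had 355 and 350 (log2 ratio -0.02). Ifnar1 had -0.55 by its brightest probe but 0.29 by a dimmer one. Itgal, which encodes a subunit of the LFA-1 receptor for secreted ISG15, had -0.64, and its partner Itgb2 a bound of 0.37.

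Markers of cell types differed between the arrays in ways that were not the same for all types. All 12 epithelial markers were well above background on both arrays, with a summed signal of 2138840 and 2662001, and 1 (Krt20, log2 ratio 1.80) passed 2-fold. Krt20 alone gave 146575 and 510711 of these sums, and the other epithelial markers lay from -0.42 (Car1) to 0.56 (Epcam). Of 14 leukocyte markers, 9 and 11 were well above background, with sums of 73950 and 99943, and 2 were more than 2-fold higher (Itgax, 1.73, and Cd3g, 1.28; 1 gene after normexp correction and 4 with the 75th percentile), while Adgre1, Cd79a and Ms4a1 were too dim to measure on both arrays. Itgam alone gave 49347 and 68597 of these sums, and the markers measured on both arrays other than Itgax and Cd3g were within 2-fold by their brightest probes, from -0.79 (Csf1r) to 0.97 (Ptprc). Cd14 had 0.88 by its brighter probe and 1.05 by the dimmer. Of 7 markers that include those of plasmacytoid cells, 7 and 6 were, with sums of 263294 and 246010. Of these sums, 1 probe of Siglech gave 238790 and 213032, and the other Siglech probe was too dim to measure. Bst2 (log2 ratio 1.62), itself induced by interferon, was higher. The brightest Tlr7 probe was well above background only on the control array (log2 ratio of at most -5.24), but a second probe was measured on both (1260 and 744, log2 ratio -0.76). Of 8 fibroblast markers, 7 and 4 were well above background, with sums of 15605 and 2947, and 5 were more than 2-fold lower, such as Dcn (6006 and 110). Of 7 smooth muscle markers, 5 and 6 were, with sums of 33007 and 47404, and Cnn1 alone passed 2-fold (log2 ratio -2.73). The part of these cell types in the ratios of the ISG15 genes was not tested.

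Ptger4, the targeted gene, had 6227 and 5661 by its brighter probe (log2 ratio -0.14) and 393 and 592 by the dimmer (0.59). Whether either probe lies in the floxed part is not given in the sources used here, so the labels of the arrays are not checked by this gene and all directions rest on them. On both arrays together, 0 spots were saturated, and 45.4% (control) and 51.6% (EP4 cKO) of 56593 probes were well above background. Among 278 probes printed several times, the log2 ratio varied between spots of the same probe with a median SD of 0.035, a spread that leaves out mice and hybridizations.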

How the data were processed

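The authors deposited the processed intensity of each spot, made with the scanner software, which subtracted the background and removed spatial trends without scaling between arrays. The software was Agilent Feature Extraction 12.0.3.1 per the file headers, whereas the labels name 11.5.1.1, and it also gave flags and an error estimate. The number of arrays limits the precision.

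Control spots and outlier spots were left out, spots of a probe averaged, and the 56593 probes scaled to a trimmed mean of 2500 without 2% at each end (factors 3.45 for Villin-Cre and 2.68 for EP4 cKO). Probes were named by RefSeq accession in a GRCm38.p6 gene table; 32989 (58.3%) matched. The array grid refers to another assembly, so only promoter coordinates are given. For a gene with several probes, the probe brightest on average was used. Bounds that did not exceed 1 were set to a log2 ratio of 0. Software errors of a ratio were combined in quadrature.

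The members and lists were chosen with earlier results of these data known. Named were all members, genes set by name, up to 3 genes past 2-fold in each direction per list and the 5 nearest to Isg15; genes outside this rule, such as those at the end of a range, were named after their values were seen. Alternatives were scaling to the 75th percentile, to a trimmed mean over all spots or to E1A control spots (8 probes, added later), normexp on median signals (offset 50) with quantile normalization, loess (span 0.3), the mean of all probes, other treatments of dim probes, and thresholds of 1.5-fold and 3-fold. Steps were tested on simulated data. Some genes of these lists are not reported here. Python 3.11.15, numpy 2.4.6, pandas 2.3.3, statsmodels 0.14.6, matplotlib 3.10.9, R 4.3.3 and limma 3.58.1 were used.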

Additional observations from a re-analysis of the deposited data

How the results depend on the processing

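Of the 5 pathway genes, all kept their direction and stayed past 2-fold wherever they had a value. A ratio is called moved here past 1.5-fold. Scaling to the E1A control spots gave log2 ratios of 6.57 (Isg15), 2.47 (Uba7), 3.03 (Ube2l6), 2.75 (Herc6) and 6.46 (Usp18), and its median over all genes was 0.87. Herc6 was 2.35 after loess and 3.25 with dim probes at their own signal, and Usp18 was 4.29 after normexp with quantile normalization. With a value required on both arrays, 3 members remained, all more than 2-fold higher, since Herc6 and Usp18 had no value. Over all genes, 717 were higher and 1171 lower as reported, 942 and 921 with the 75th percentile, 895 and 966 with all spots, 602 and 395 after normexp, 1127 and 769 after loess, 5817 and 338 with E1A spots, 519 and 802 with values on both arrays, and 1172 and 7253 of 22909 with dim probes at their own signal, which moved the median of all genes by -0.27. That median moved by at most 0.14 under the scalings other than E1A.

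Over the 14 other lists, 104 of 140 recomputed counts of genes past 2-fold in either direction were within 1.5 times the count reported. With E1A scaling the counts were 7 (other ISG15 partners), 4 (interferons), 5 (receptors), 9 (modifiers), 4 (E1), 15 (E2), 12 (HECT), 15 (USP), 7 (epithelium), 6 (leukocytes), 4 (plasmacytoid) and 4 (smooth muscle). With dim probes at their own signal they were 4 (interferons), 1 (E2), 3 (HECT), 7 (USP) and 3 (smooth muscle). Normexp gave 1 for interferons, leukocytes and plasmacytoid markers. With values on both arrays there were 1 (interferons), 0 (HECT), 1 (plasmacytoid) and 2 (fibroblasts). At 1.5-fold the counts were 4 (partners), 2 (modifiers), 5 (E2), 3 (HECT), 8 (USP), 5 (leukocytes) and 4 (smooth muscle), and at 3-fold 1 for interferons, USP genes and leukocytes. The 75th percentile and the trimmed mean over all spots gave 4 leukocyte markers. The causes were not tested. No paired analysis was possible because each genotype has 1 array, and no array could be left out.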
